A study of Mus musculus with 12 samples.

Results

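The genes described here are 10 feedback and direct target genes of canonical Wnt signalling: Axin2, Nkd1, Nkd2, Notum, Wif1, Apcdd1, Rnf43, Znrf3, Sp5 and Tnfrsf19. They were chosen by name, with earlier results of these data known, so shares of all genes given beside their counts are description only. All probe sets annotated to these symbols were taken. This gave 25 of the 45101 probe sets on the array and 10 of the 18194 genes with a named probe set. In canonical Wnt signalling a secreted Wnt ligand binds Frizzled and LRP receptors, the complex that destroys β-catenin is held back, and β-catenin enters the nucleus, where it acts with TCF and LEF factors. Many of the genes it switches on encode inhibitors of the pathway itself, so their RNA is widely used as a readout of pathway activity. In the oligodendrocyte lineage Wnt signalling is known for its part in the timing of differentiation of precursor cells into myelinating cells.

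RNA from the spinal cord of mice was hybridised to 12 Affymetrix arrays. The 4 groups held 3 biological replicates each: Olig2cre/DA-Cat mice of day 15, wild-type mice of that day, Olig2cre/DA-Cat mice of day 4, and wild-type mice of day 4. Olig2cre drives Cre recombinase from the Olig2 gene, which is used in the oligodendrocyte lineage and also in motor neuron progenitors, and DA-Cat is known as a dominant-active form of β-catenin that Cre switches on. The wild-type mice were littermates, and no group with Cre alone was analysed here, so Cre, the Olig2cre allele and DA-Cat cannot be told apart. The submitters enter the day under developmental stage, but their protocol describes lysolecithin injection (0.5 μL at 1%) into the ventrolateral white matter of mice 8 to 10 weeks old, with cords collected unlesioned or 14 days later; what the days count from and whether these samples were lesioned could not be settled from the labels. Whether a sample pools animals is not stated in the labels.

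Levels are log2 signals as deposited, and differences are log2 differences from a limma fit to all 12 arrays, given with their standard error (SE). A gene was called where its Benjamini-Hochberg adjusted p over all genes was under 0.05, and its probe set with the highest mean level stood for it. Array medians lay between 6.14 and 6.19. The 27 bacterial control probe sets, which have no target in mouse RNA, lay between 2.70 and 5.23 with a median of 3.10, so group means under 5 are given as near background. Neuron genes lay between 11.67 and 11.89 on the 12 arrays as the mean of 12 genes, and 11 oligodendrocyte genes averaged 11.56 in Olig2cre/DA-Cat and 12.21 in wild type at day 15, and 8.26 in Olig2cre/DA-Cat and 10.29 in wild type at day 4. The tissue thus held neuron genes at high levels although the source label names white matter. Ctnnb1, the gene of β-catenin itself, differed by -0.07 at day 15 (adjusted p = 0.693) and by -0.05 at day 4 (adjusted p = 0.696); whether its probe sets read the DA-Cat transcript is not given here, so this level checks no label. Olig2 was lower in Olig2cre/DA-Cat, by 0.44 at day 15 and 0.90 at day 4.

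Promoter windows of 7 of the 10 genes were at hand from RefSeq (GRCm38.p6), 9 windows of 250 bases before to 50 bases after a gene start. They were searched on both strands for CTTTGAT and CTTTGAA, core forms of the site that TCF and LEF factors bind, and 2 of the 9 windows held a match. Of all 32851 windows of this length, 8.65% held one of the 2 forms. The windows with a match are shown with the match in capitals, and that of Axin2, the most widely used readout gene, is shown as one without a match. The Sp5 window (chr2:70474673-70474972, plus strand) holds CTTTGAT 104 bases before the start. The Tnfrsf19 window (chr14:61037938-61038237, minus strand) holds the same form on the opposite strand, 202 bases before the start. The Axin2 window is chr11:108920099-108920398, plus strand. A match is a string of letters, not a measured binding site, and its absence from a window of this size says only that the letters are not there.
Sp5: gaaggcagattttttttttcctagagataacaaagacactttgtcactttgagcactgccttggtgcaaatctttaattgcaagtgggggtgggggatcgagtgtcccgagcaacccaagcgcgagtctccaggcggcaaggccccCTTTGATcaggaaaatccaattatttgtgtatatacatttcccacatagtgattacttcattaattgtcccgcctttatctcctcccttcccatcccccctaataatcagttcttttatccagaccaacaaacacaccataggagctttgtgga
Tnfrsf19: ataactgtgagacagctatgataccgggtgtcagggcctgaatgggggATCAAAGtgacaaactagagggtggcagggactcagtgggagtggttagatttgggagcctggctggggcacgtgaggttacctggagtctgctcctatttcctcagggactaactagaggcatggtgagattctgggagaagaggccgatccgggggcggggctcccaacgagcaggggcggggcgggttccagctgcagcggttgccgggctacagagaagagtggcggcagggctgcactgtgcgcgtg
Axin2: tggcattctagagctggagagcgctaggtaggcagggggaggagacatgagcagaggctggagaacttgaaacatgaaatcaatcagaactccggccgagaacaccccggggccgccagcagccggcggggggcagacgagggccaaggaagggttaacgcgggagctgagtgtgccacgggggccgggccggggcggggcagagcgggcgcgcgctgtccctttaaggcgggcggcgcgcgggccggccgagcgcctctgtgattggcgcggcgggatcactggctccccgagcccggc

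The comparison of Olig2cre/DA-Cat with wild type asks how the levels of these genes in the sampled tissue differ between the genotypes. At day 15, 4 of the 10 genes were higher in Olig2cre/DA-Cat (Wif1, Notum, Tnfrsf19 and Axin2) and 0 were lower (in limma, 6 higher and 0 lower at an unadjusted p under 0.05), where 0.616% of all genes were called higher and 2.31% lower. At day 4, 8 of the 10 were higher and 0 lower (9 and 0 at an unadjusted p under 0.05), where 1.3% of all genes were called higher and 1.81% lower. Nkd2 and Znrf3 were the exceptions at day 4. The median difference over the 10 genes was 0.46 at day 15 and 1.16 at day 4, and over all genes 0.02 at day 15 and 0.03 at day 4. The groups did not overlap for 5 of the 10 genes at day 15 (20.3% of all genes) and for 9 at day 4 (29.1%). Averaged over both days, 8 of the 10 were higher (4.19% of all genes). These arrays measure a mixture of cells, in which fewer cells of a type and less RNA per cell cannot be told apart.

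**Figure D1:**
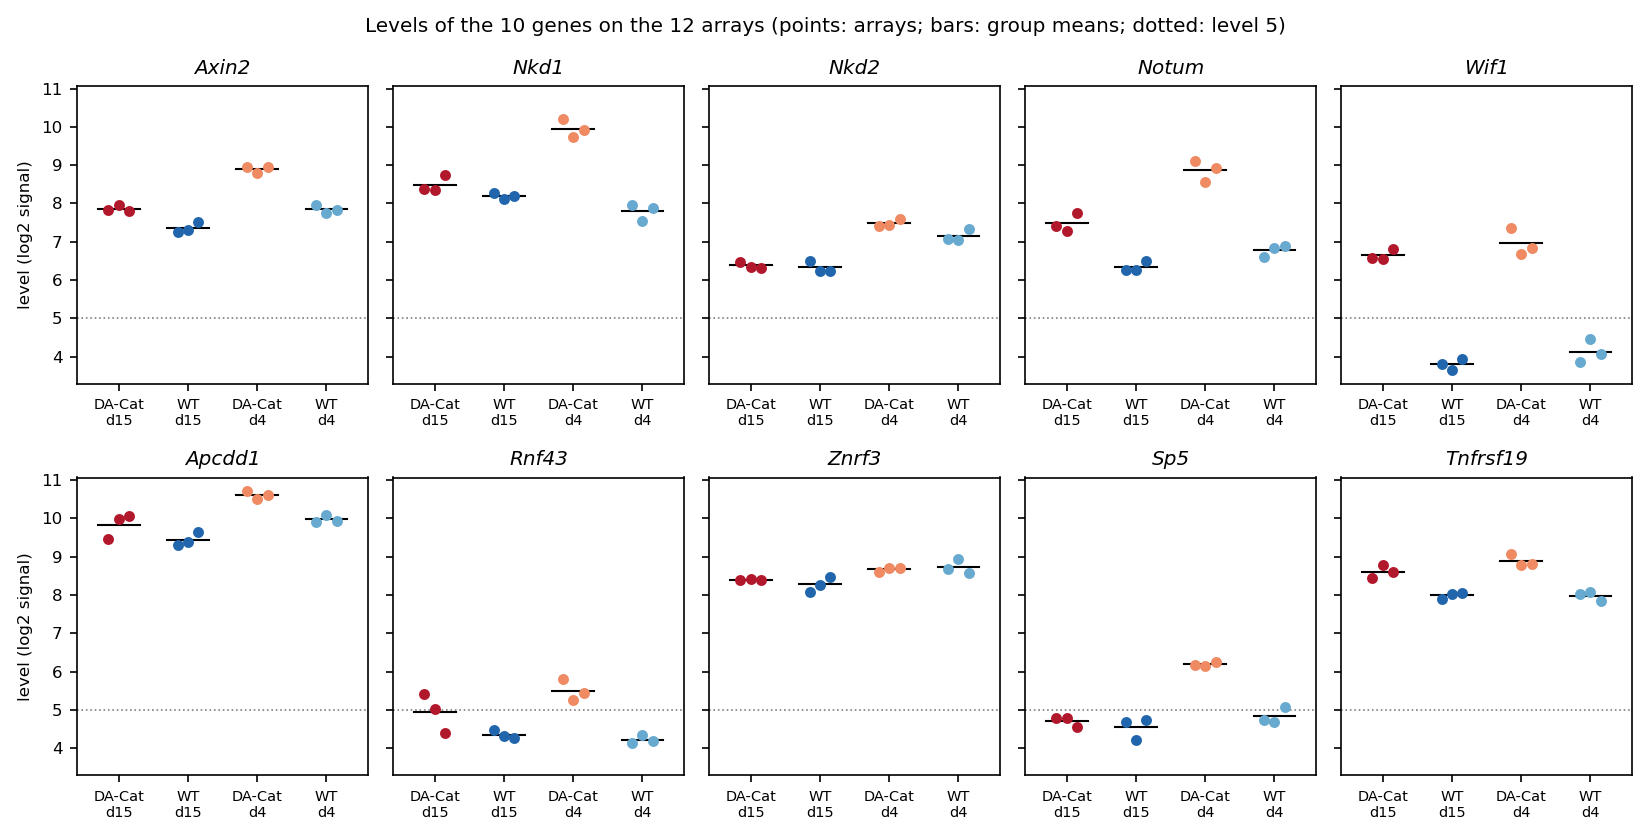
Level (log2 signal, vertical axis) of each of the 10 genes on the 12 arrays, in 4 groups of 3 arrays per panel, with points for arrays, bars for group means and a dotted line at level 5. Wif1 lies between 6.56 and 7.35 on the Olig2cre/DA-Cat arrays of both days and between 3.65 and 4.47 on those of wild type, whereas Sp5 lies over 6 only in Olig2cre/DA-Cat at day 4.

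Axin2 encodes a protein that holds the parts of the β-catenin destruction complex together. Its level at day 15 was 7.83, 7.97 and 7.81 in Olig2cre/DA-Cat, against 7.24, 7.31 and 7.51 in wild type. The day 4 levels were 8.94, 8.80 and 8.95 in Olig2cre/DA-Cat, against 7.95, 7.75 and 7.83 in wild type. The Olig2cre/DA-Cat arrays lay over all wild-type arrays of their day, and those of day 15 lay near the wild-type level of day 4. Axin2 rose by 0.51 ± 0.08 (SE) at day 15, which is 1.43-fold (adjusted p = 0.0057), and by 1.05 ± 0.08 at day 4, which is 2.07-fold (adjusted p = 1.16e-05). Its day 15 call was lost when only the day 15 arrays were fitted (adjusted p = 0.0597). A second Axin2 probe set, near background with group means between 3.68 and 4.37, differed by 0.34 at day 15 and 0.53 at day 4.

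Nkd1 and Nkd2 encode the naked cuticle proteins, which bind Dishevelled and dampen the signal upstream of the destruction complex. The Nkd1 levels at day 15 were 8.38, 8.36 and 8.75 in Olig2cre/DA-Cat, against 8.27, 8.12 and 8.19 in wild type. On the day 4 arrays they were 10.20, 9.74 and 9.91 in Olig2cre/DA-Cat, against 7.97, 7.55 and 7.88 in wild type. The groups did not overlap on either day, by a narrow margin at day 15 and a wide one at day 4. Nkd1 rose by 2.15 ± 0.14 (SE) at day 4, which is 4.45-fold (adjusted p = 2.69e-06). At day 15 the difference was 0.30, with a 95% interval of -0.003 to 0.61 (adjusted p = 0.300). Of its 4 probe sets 3 were called higher at day 4, at 1.33, 1.78 and 2.15, and the other differed by 0.41 (adjusted p = 0.068), with group means between 5.36 and 5.85; at day 15, 0 of the 4 were called and 1 had an unadjusted p under 0.05.

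Nkd2 was not called on either day. Its levels at day 15 were 6.48, 6.34 and 6.32 in Olig2cre/DA-Cat, against 6.51, 6.24 and 6.24 in wild type. Those of day 4 were 7.40, 7.43 and 7.60 in Olig2cre/DA-Cat, against 7.06, 7.04 and 7.33 in wild type. The groups overlapped at day 15 and were narrowly apart at day 4. The difference was 0.05 at day 15 (95% interval -0.17 to 0.27, adjusted p = 0.845) and 0.33 at day 4 (95% interval 0.12 to 0.55, adjusted p = 0.0898). The day 4 difference was called without wild type replicate 3, at 0.43 (adjusted p = 0.0406), and with the replicate number as a block within each day (adjusted p = 0.0333). The 4 Nkd2 probe sets differed by 0.06 to 0.33 at day 4 and 0 of them were called, although 2 had an unadjusted p under 0.05. At day 15 they differed by 0.05 to 0.21 and 0 were called. Averaged over both days Nkd2 differed by 0.19 (adjusted p = 0.111). This average was called with the mean of its probe sets (0.18, adjusted p = 0.0207) and with the block within each day (adjusted p = 0.0380). It was also called without wild type day 4 replicate 3 (0.24, adjusted p = 0.0453).

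Notum and Wif1 are secreted. Notum is an enzyme that removes the lipid from Wnt ligands, and its level at day 15 was 7.41, 7.29 and 7.74 in Olig2cre/DA-Cat, against 6.27, 6.26 and 6.50 in wild type. On the day 4 arrays it was 9.10, 8.56 and 8.94 in Olig2cre/DA-Cat, against 6.61, 6.84 and 6.88 in wild type. The Olig2cre/DA-Cat arrays lay well over those of wild type on both days. Notum rose by 1.14 ± 0.15 (SE) at day 15, which is 2.21-fold (adjusted p = 0.00151), and by 2.09 ± 0.15 at day 4, which is 4.25-fold (adjusted p = 4.22e-06).

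Wif1 is a protein that binds Wnt ligands outside the cell. Its level at day 15 was 6.58, 6.56 and 6.81 in Olig2cre/DA-Cat, against 3.80, 3.65 and 3.95 in wild type. At day 4 it was 7.35, 6.69 and 6.84 in Olig2cre/DA-Cat, against 3.87, 4.47 and 4.06 in wild type. All 6 wild-type arrays lay near background, so the size of the difference is limited by it on both days. Wif1 ranked 1 of 18194 genes by difference at day 15, where it rose by 2.85 ± 0.18 (SE, 7.22-fold, adjusted p = 2.99e-05), and 3 at day 4, where it rose by 2.83 ± 0.18 (7.10-fold, adjusted p = 1.73e-06).

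Apcdd1 is a membrane protein that binds Wnt and its LRP receptor and inhibits signalling, and it is also known from brain endothelium. Its level at day 15 was 9.47, 9.98 and 10.06 in Olig2cre/DA-Cat, against 9.29, 9.38 and 9.63 in wild type. The day 4 arrays gave 10.71, 10.52 and 10.61 in Olig2cre/DA-Cat, against 9.92, 10.10 and 9.93 in wild type. The groups overlapped at day 15 through Olig2cre/DA-Cat replicate 1 and were apart at day 4. Apcdd1 rose by 0.63 ± 0.14 (SE) at day 4, which is 1.55-fold (adjusted p = 0.0319), and this call was lost without any of the 6 arrays of day 4 (adjusted p between 0.0605 and 0.124). At day 15 the difference was 0.40 (95% interval 0.10 to 0.70, adjusted p = 0.167), and without Olig2cre/DA-Cat replicate 1 it was called, at 0.58 (adjusted p = 0.0180). The 6 Apcdd1 probe sets differed by 0.18 to 0.40 at day 15 and by 0.27 to 0.83 at day 4, where 3 of them were called. Endothelial genes averaged between 8.04 and 8.29 on the 12 arrays.

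Rnf43 and Znrf3 are membrane-bound ubiquitin ligases that take Frizzled receptors off the cell surface. The level of Rnf43 at day 15 was 5.42, 5.02 and 4.38 in Olig2cre/DA-Cat, against 4.48, 4.32 and 4.27 in wild type. The day 4 arrays gave 5.80, 5.25 and 5.44 in Olig2cre/DA-Cat, against 4.14, 4.34 and 4.18 in wild type. Its mean was over 5 in Olig2cre/DA-Cat at day 4 alone, and at day 15 the groups overlapped through Olig2cre/DA-Cat replicate 3. Rnf43 rose by 1.28 ± 0.21 (SE) at day 4, which is 2.42-fold (adjusted p = 0.00561), a size limited by the wild-type mean of 4.22, near background. At day 15 the difference was 0.59 (95% interval 0.13 to 1.04, adjusted p = 0.178), and without Olig2cre/DA-Cat replicate 3 it was called, at 0.87 (adjusted p = 0.0213).

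Znrf3, the paralog of Rnf43, was not called on either day. Its level at day 15 was 8.40, 8.41 and 8.39 in Olig2cre/DA-Cat, against 8.08, 8.27 and 8.48 in wild type. On the day 4 arrays it was 8.60, 8.72 and 8.71 in Olig2cre/DA-Cat, against 8.68, 8.94 and 8.56 in wild type. The groups overlapped on both days. The difference was 0.13 at day 15 (95% interval -0.11 to 0.36, adjusted p = 0.599) and -0.05 at day 4 (95% interval -0.29 to 0.18, adjusted p = 0.817). The 95% interval of Rnf43 at day 4 began at 0.82; the difference of one gene was not tested against that of the other.

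Sp5 is a zinc-finger transcription factor and a direct target that acts back on other Wnt target genes. Its level at day 15 was 4.80, 4.79 and 4.55 in Olig2cre/DA-Cat, against 4.69, 4.22 and 4.73 in wild type. At day 4 it was 6.16, 6.14 and 6.26 in Olig2cre/DA-Cat, against 4.74, 4.69 and 5.08 in wild type. Only the day 4 group of Olig2cre/DA-Cat had a mean over 5. Sp5 rose by 1.35 ± 0.14 (SE) at day 4, which is 2.55-fold (adjusted p = 0.00011), a size limited by the wild-type mean of 4.83, near background. At day 15 the difference was 0.17 (95% interval -0.13 to 0.47, adjusted p = 0.575), with both groups near background.

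Tnfrsf19, also called TROY, is a receptor of the tumour necrosis factor receptor family. Its level at day 15 was 8.44, 8.79 and 8.60 in Olig2cre/DA-Cat, against 7.89, 8.02 and 8.05 in wild type. At day 4 it was 9.08, 8.77 and 8.82 in Olig2cre/DA-Cat, against 8.02, 8.08 and 7.85 in wild type. The Olig2cre/DA-Cat arrays lay over those of wild type on both days. Tnfrsf19 rose by 0.62 ± 0.10 (SE) at day 15, which is 1.54-fold (adjusted p = 0.00687), and by 0.91 ± 0.10 at day 4, which is 1.87-fold (adjusted p = 0.000353). Of its 3 probe sets 2 were called on both days, and the third was near background in all groups with differences of 0.01 at day 15 and -0.03 at day 4.

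**Figure D2:**
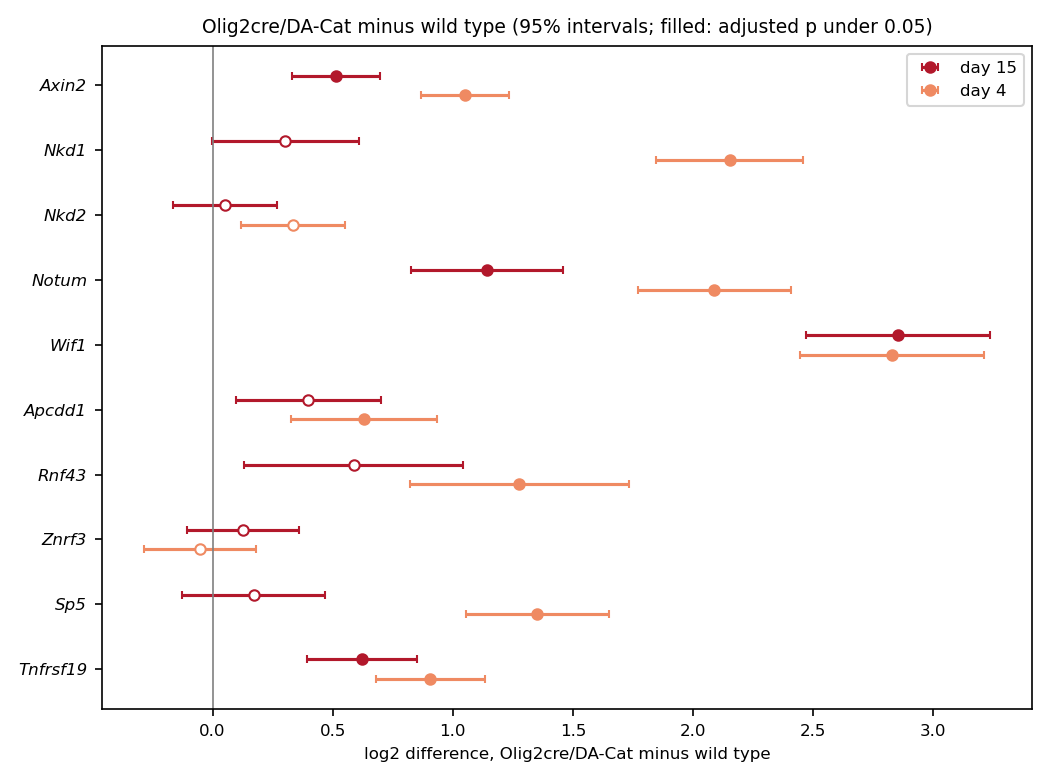
Difference between the genotypes (log2, Olig2cre/DA-Cat minus wild type, horizontal axis) for each gene at day 15 and at day 4, with 95% intervals; filled points have an adjusted p under 0.05. Nkd1 has points at 0.30 for day 15 and 2.15 for day 4, and Sp5 at 0.17 for day 15 and 1.35 for day 4, while those of Wif1, limited on both days by wild-type levels near background, are at 2.85 for day 15 and 2.83 for day 4.

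Whether the genotype effect differed between the days was tested as the day 15 effect minus the day 4 effect. It was smaller at day 15 for Nkd1 and Sp5, which makes 2 of the 10 genes with a negative difference past the threshold and 0 with a positive one (5 and 0 at an unadjusted p under 0.05; 0.159% of all genes were called negative). For Nkd1 the effects differed by -1.85 ± 0.20 (SE, adjusted p = 0.000935), and for Sp5 by -1.18 ± 0.19 (SE, adjusted p = 0.0186). The Sp5 means were near background in both genotypes at day 15 and in wild type at day 4, which limits the size of its effects and of their difference. Its call was lost with the replicate number as a block within each day (adjusted p = 0.0684). It was also lost without any one of 7 arrays (wild type day 15 replicate 1, Olig2cre/DA-Cat day 15 replicate 3, wild type day 4 replicates 1 and 2, and Olig2cre/DA-Cat day 4 replicates 1, 2 and 3), with adjusted p between 0.0509 and 0.0727. The difference was -0.95 ± 0.21 for Notum (adjusted p = 0.0906) and -0.54 ± 0.12 for Axin2 (adjusted p = 0.0925), neither of which passed. Without Olig2cre/DA-Cat day 4 replicate 2 that of Notum was called, at -1.10 (adjusted p = 0.0379), and without the dimmest 50% of genes that of Axin2 was called, at -0.54 (adjusted p = 0.0357). For Wif1 it was 0.02, with a 95% interval of -0.52 to 0.56, but its wild-type means of 3.80 at day 15 and 4.13 at day 4 lay near background, so the effects of the 2 days are both limited by it and are not shown to be equal. For Tnfrsf19 it was -0.29 (95% interval -0.61 to 0.04), and for Rnf43 -0.69 (95% interval -1.33 to -0.05, adjusted p = 0.471). The median over the 10 genes was -0.41, against -0.01 over all genes.

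Day 15 was also compared with day 4 within each genotype. In Olig2cre/DA-Cat 8 of the 10 genes were lower at day 15 and 0 higher, where 26.3% of all genes were lower. In wild type 5 were lower (23.6% of all genes) and 1, Nkd1, was higher (21.3%). Over the 10 genes the median change was -0.90 in Olig2cre/DA-Cat and -0.38 in wild type. The groups of the 2 days did not overlap for 7 of the 10 genes in Olig2cre/DA-Cat (56.2% of all genes) and for 6 in wild type (53.3%).

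Nkd1 fell by 1.46 ± 0.14 (SE, adjusted p = 3.1e-06) in Olig2cre/DA-Cat and rose by 0.39 ± 0.14 (adjusted p = 0.0371) in wild type. With the level of 12 meninges and fibroblast genes as a covariate, whose mean was 8.58 at day 15 and 9.44 at day 4 in wild type, the wild-type change of Nkd1 was 0.09 (adjusted p = 0.740); the part of that tissue in this result was not tested further. The wild-type call was lost without any one of 5 arrays (wild type day 15 replicates 1, 2 and 3, and wild type day 4 replicates 2 and 3), with adjusted p between 0.0527 and 0.161. Sp5 fell by 1.47 ± 0.14 in Olig2cre/DA-Cat (adjusted p = 2.29e-06), whereas in wild type it was at -0.29 (adjusted p = 0.108) near background. Notum fell by 1.38 ± 0.15 in Olig2cre/DA-Cat and by 0.44 ± 0.15 in wild type (adjusted p = 0.0281), where the call was lost without any one of 4 arrays (wild type day 15 replicates 1 and 2, and wild type day 4 replicates 2 and 3) and with the meninges covariate (adjusted p = 0.170). Axin2 fell by 1.03 ± 0.08 in Olig2cre/DA-Cat and by 0.49 ± 0.08 in wild type (adjusted p = 0.000381).

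Nkd2, which was not called between the genotypes on either day, fell by 1.10 ± 0.10 in Olig2cre/DA-Cat and by 0.81 ± 0.10 in wild type. Apcdd1 fell by 0.78 ± 0.14 in Olig2cre/DA-Cat and by 0.54 ± 0.14 in wild type, where the call was lost with the meninges covariate (-0.44, adjusted p = 0.139). Znrf3 was at -0.27 in Olig2cre/DA-Cat (adjusted p = 0.0515; called without wild type day 15 replicate 1 or 3 or wild type day 4 replicate 2 or 3, adjusted p between 0.0277 and 0.0417) and fell by 0.45 in wild type (adjusted p = 0.0040). The wild-type call of Znrf3 was lost with the mean of its probe sets (-0.17, adjusted p = 0.113) and with the meninges covariate (-0.19, adjusted p = 0.289). Wif1 did not pass in Olig2cre/DA-Cat, at -0.31 (95% interval -0.69 to 0.07), or in wild type, at -0.33 (95% interval -0.71 to 0.05). Rnf43 fell by 0.56 (adjusted p = 0.0433) and Tnfrsf19 by 0.28 (adjusted p = 0.0416) in Olig2cre/DA-Cat. The Rnf43 call was lost without any one of 10 arrays, all but Olig2cre/DA-Cat day 15 replicate 1 and day 4 replicate 2, and without Olig2cre/DA-Cat day 15 replicate 3 it was at -0.28 (adjusted p = 0.172). The Tnfrsf19 call was lost without any one of 6 (Olig2cre/DA-Cat day 15 replicates 1 and 3, wild type day 15 replicate 2, Olig2cre/DA-Cat day 4 replicates 1 and 3, and wild type day 4 replicate 1), with adjusted p between 0.0527 and 0.174. In the fit of single probe sets, the Tnfrsf19 probe set used here was not called in Olig2cre/DA-Cat (adjusted p = 0.0562). A second Tnfrsf19 probe set fell by 0.50 there (adjusted p = 0.000717), and the third, near background, was at 0.07 (adjusted p = 0.676). In wild type Rnf43 was at 0.13 and Tnfrsf19 at 0.00 (95% interval -0.22 to 0.23), and neither passed.

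**Figure D3:**
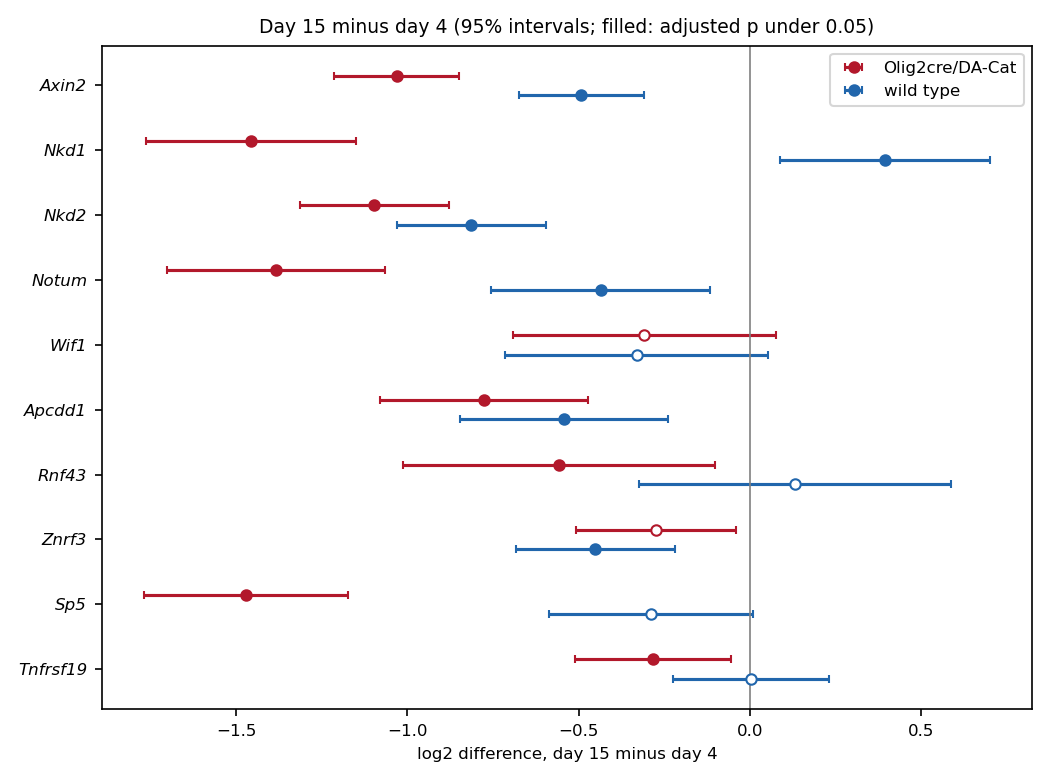
Change between the days (log2, day 15 minus day 4, horizontal axis) for each gene in Olig2cre/DA-Cat and in wild type, with 95% intervals; filled points have an adjusted p under 0.05. The points of Nkd1 lie at -1.46 in Olig2cre/DA-Cat and at 0.39 in wild type, and those of Wif1 together near -0.3.

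Over single probe sets, 5 of the 25 were called higher at day 15 (0.258% of all probe sets tested) and 14 at day 4 (0.415%). The genotype effect was smaller at day 15 in 4 of the 25 (0.0844%), of which 3 were probe sets of Nkd1. Day 15 was lower than day 4 for 17 of the 25 in Olig2cre/DA-Cat (18.7%), and in wild type for 12 (16.5%), with 2 higher (16.5%). 6 of the genes had several probe sets, and 4 of the 25 probe sets were near background in all groups.

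**Figure D4:**
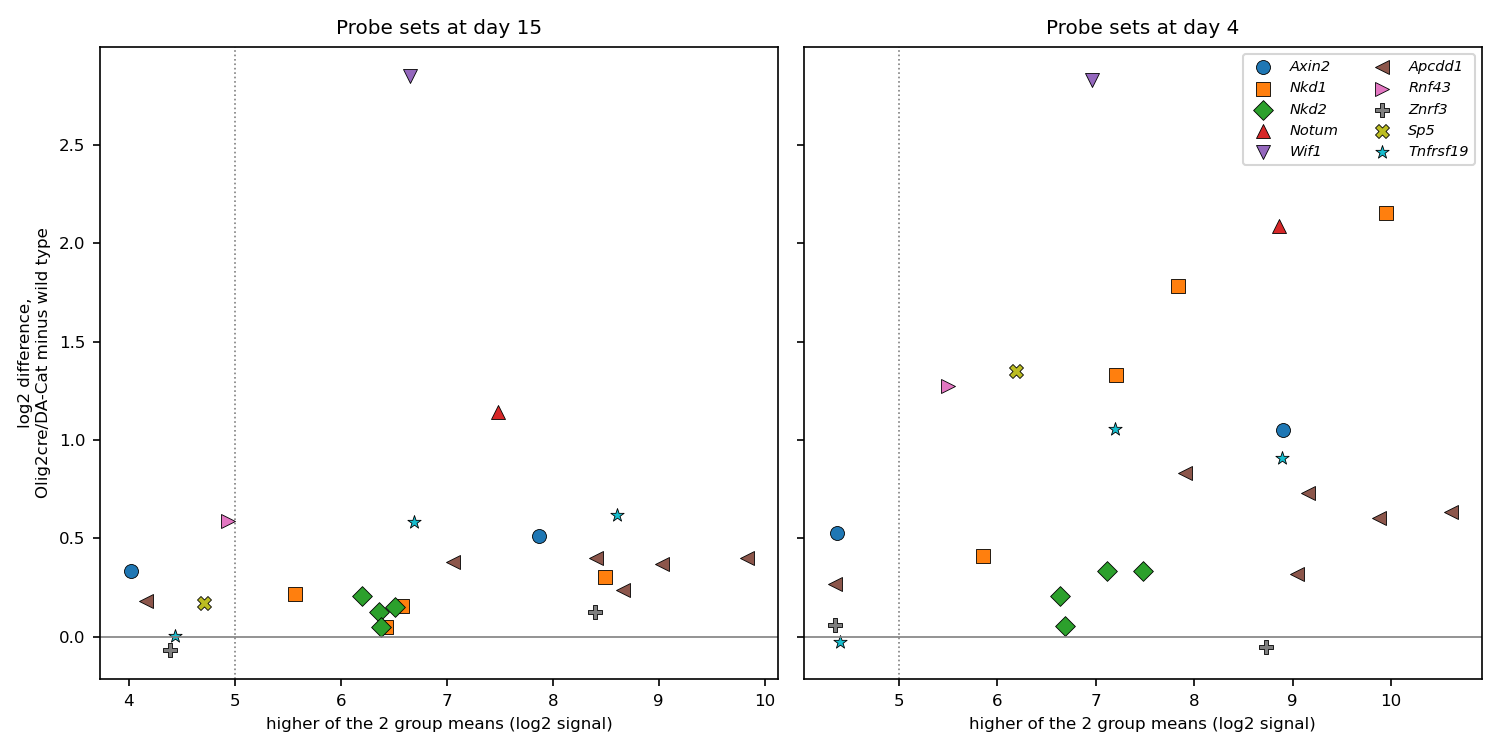
Difference between the genotypes (log2, Olig2cre/DA-Cat minus wild type, vertical axis) of the 25 probe sets against the higher of both group means (log2 signal, horizontal axis), at day 15 on the left and day 4 on the right; the dotted line marks level 5. The 4 Nkd1 probe sets spread between 0.05 and 0.30 at day 15 and between 0.41 and 2.15 at day 4.

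Across the 12 arrays the correlation was positive for all 45 pairs of genes, from 0.14 (Rnf43 with Znrf3) to 0.95, with a median of 0.77. These points share groups, arrays and normalization, so the correlations also carry the group differences, and no p is given. Of the 2881 genes with a range of at least 1 over the arrays, those outside the 10 most like Axin2 by Pearson's r were Wwc1 and Fbln1 at 0.95, Nkx6-1 at 0.93, Adarb2 and Prss56 at 0.92 and Ccdc30 at 0.91. Those most like the mean of the 10 were Prss56 at 0.98, Cxcr4 at 0.92, Ppp1r3b at 0.91, Fbln1 and Wwc1 at 0.90 and Esyt3 at 0.88. Prss56, a serine protease, averaged 5.96 in Olig2cre/DA-Cat and 4.10 in wild type at day 15, and 7.99 in Olig2cre/DA-Cat and 4.45 in wild type at day 4. Its wild-type means lay near background, which limits the size of its differences. Ranked by Spearman's rho, Prss56 and Cxcr4 were still the 2 genes most like the mean of the 10. For Axin2 the ranks by rho were 7 for Adarb2, 28 for Ccdc30, 154 for Nkx6-1, 180.5 for Prss56, 210 for Wwc1 and 261 for Fbln1.

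Other genes of the pathway are described as lists chosen for their roles, also with earlier results of these data known, and tested in the same limma fit. Of 19 Wnt ligands 0 were called on either day (0 at day 15 and 2 at day 4 at an unadjusted p under 0.05), with medians of 0.02 at day 15 and -0.03 at day 4. Of 14 other secreted antagonists 0 were called on either day (5 at day 15 and 3 at day 4 at an unadjusted p under 0.05), with medians of 0.13 at day 15 and 0.11 at day 4. Averaged over both days 2 of the 14 were higher (4.19% of all genes). These were Dkk3, by 0.31 (adjusted p = 0.0109), and Frzb, by 0.24 (adjusted p = 0.0301). Of 15 genes of β-catenin and its destruction complex 0 were called at day 15 (5 at an unadjusted p under 0.05) and 1, Amer3, was higher at day 4 (1.3% of all genes). The Amer3 call was lost in 7 of the 12 fits without 1 array and in 6 of 14 fits with other settings. Averaged over both days 2 of the 15, Apc2 and Amer3, were higher (4.19% of all genes). Of 15 TCF and LEF factors and co-activators 0 were called at day 15 (2 at an unadjusted p under 0.05), and at day 4 Lef1 rose and Tcf7l2 fell. Of 32 other reported Wnt targets 3 were higher and 1 lower on each day, with medians of 0.05 at day 15 and 0.03 at day 4, beside 0.616% of all genes higher and 2.31% lower at day 15, and 1.3% higher and 1.81% lower at day 4. Those called were Lgr5, Lgr6, Ccnd2 and, lower, Ndrg1 at day 15, and Lef1, Lgr6, Ephb3 and, lower, Ccnd1 at day 4; Ccnd1, Ccnd2 and Ephb3 are named because they complete these counts.

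Lef1, a nuclear partner of β-catenin and itself a target, averaged 6.15 ± 0.08 in Olig2cre/DA-Cat and 5.92 ± 0.05 in wild type at day 15, and 6.56 ± 0.07 in Olig2cre/DA-Cat and 5.86 ± 0.12 in wild type at day 4 (SD, n = 3 each). It rose by 0.70 ± 0.07 (SE) at day 4 (adjusted p = 0.000137), a call lost with its probe set of largest variance (0.58, adjusted p = 0.0881). Tcf7l2, another such partner, fell by 0.75 ± 0.14 at day 4 (adjusted p = 0.0124), a call lost without wild type replicate 2 or Olig2cre/DA-Cat replicate 2 or 3 of that day (adjusted p between 0.0508 and 0.0539). R-spondins enhance Wnt signalling by holding back Rnf43 and Znrf3. In the joint list of 7 genes of R-spondins and their Lgr receptors, 3 were higher at day 15 (0.616% of all genes) and 2 at day 4 (1.3%). Rspo3 rose by 0.41 at day 15 (adjusted p = 0.00699) and by 0.39 at day 4 (adjusted p = 0.00966), where the call was lost without Olig2cre/DA-Cat replicate 3 (adjusted p = 0.0569) or wild type replicate 1 (adjusted p = 0.0524) and with the mean of its probe sets (adjusted p = 0.0952). Its day 15 call was lost with the meninges covariate (adjusted p = 0.0579), with the Schwann cell covariate (adjusted p = 0.0915) and when only the day 15 arrays were fitted (adjusted p = 0.0855). Lgr6 rose by 0.54 at day 15 (adjusted p = 0.0192) and by 0.62 at day 4 (adjusted p = 0.00941); the day 15 call was lost without Olig2cre/DA-Cat replicate 3 or wild type replicate 1 or 2, and the day 4 call without Olig2cre/DA-Cat replicate 3 or wild type replicate 1 (adjusted p between 0.0540 and 0.0787). The day 15 call of Lgr6 was also lost with each of the muscle, Eif2s3y, meninges and Schwann cell covariates and when only the day 15 arrays were fitted (adjusted p between 0.0542 and 0.148), and the day 4 call with the mean of its probe sets (adjusted p = 0.0936). Lgr5 rose by 0.51 at day 15 (adjusted p = 0.00321), a call lost with the mean of its probe sets (0.24, adjusted p = 0.0743), and differed by 0.06 at day 4 (adjusted p = 0.669). Of 23 receptors and transducers 2 were higher (Fzd1 and Reck; 0.616% of all genes) and 1 lower (Wls; 2.31%) at day 15, and 2 were higher at day 4 (Fzd1 and Fzd2; 1.3%). Leaving out 1 array at a time ended the call in 9 of 12 fits for Reck, 4 for Wls and 4 for Fzd2, and Wls was at -0.13 with its probe set of largest variance (adjusted p = 0.631). Fits with other settings ended the call in 7 of 13 for Reck, 5 of 14 for Wls and 4 of 13 for Fzd2. Reck, Wls and Fzd2 are named because they complete these counts. The receptor Fzd1 rose by 0.40 at day 15 (adjusted p = 0.0209) and by 0.39 at day 4 (adjusted p = 0.0242), and leaving out 1 array ended the day 15 call for 5 of the 6 arrays of that day, all but Olig2cre/DA-Cat replicate 2, and the day 4 call for Olig2cre/DA-Cat replicates 2 and 3 and wild type replicates 1 and 3 (adjusted p between 0.0551 and 0.114). Both were also lost with the replicate number as a block within each day (adjusted p = 0.0666 at day 15 and 0.0632 at day 4). The day 15 call of Fzd1 was lost as well with the mean of its probe sets (0.21, adjusted p = 0.0815). The same held with the muscle covariate (adjusted p = 0.0686), the meninges covariate (adjusted p = 0.0771) and the day 15 arrays alone (adjusted p = 0.103).

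Marker genes of neighbouring tissues varied between the arrays beside these results. The mean of 14 skeletal muscle genes was 11.05, 5.25 and 8.74 in Olig2cre/DA-Cat at day 15 and 6.42, 5.07 and 7.62 in wild type at day 15, and 5.57, 8.56 and 7.38 in Olig2cre/DA-Cat at day 4 and 5.37, 7.88 and 6.19 in wild type at day 4. With this level as a covariate 4 of the 10 genes were called at day 15 and 8 at day 4, as without it. The mean of 12 meninges and fibroblast genes was 9.23, 9.32 and 8.78 in Olig2cre/DA-Cat at day 15 and 8.18, 8.39 and 9.18 in wild type at day 15, and between 9.50 and 9.79 in Olig2cre/DA-Cat at day 4 and between 9.13 and 9.72 in wild type at day 4. With it as a covariate 4 were called at day 15 and 7 at day 4. The mean of 6 Schwann cell genes was 8.05, 8.35 and 8.16 in Olig2cre/DA-Cat at day 15 and 7.48, 7.41 and 8.04 in wild type at day 15, groups that did not overlap, and between 7.74 and 8.07 in Olig2cre/DA-Cat at day 4 and between 7.60 and 8.03 in wild type at day 4. With it as a covariate 2 were called at day 15, Wif1 and Notum, and 8 at day 4. Axin2 was then at 0.37 (adjusted p = 0.110) and Tnfrsf19 at 0.57 (adjusted p = 0.0866) at day 15. Averaged over both days Apcdd1 was then at 0.43, and its call was lost (adjusted p = 0.0746). Eif2s3y, a gene of the Y chromosome, was at 7.94, 3.29 and 6.54 in Olig2cre/DA-Cat at day 15, at 8.19, 8.82 and 7.48 in wild type at day 15, and between 6.65 and 8.56 on the day 4 arrays; with it as a covariate the genotype calls of the 10 genes numbered 4 at day 15 and 8 at day 4, and 1 of the 2 calls on the difference between days, that of Sp5, was lost (adjusted p = 0.0596).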

How the data were processed

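Total RNA of 12 spinal cord samples was hybridised to 12 arrays, 1 biotin-labelled sample each, and groups and replicate numbers came from the sample titles. The deposited table holds a log2 signal for each probe set on each array. The log2 scale was inferred from the range of the values. The authors' background correction, probe summary and between-array normalization are not given in the sources used here. Array medians were nearly equal, which would hide a change common to most genes. The labels give no batch, and no scan date or detection call was used.

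Probe sets were named from the platform annotation: 34958 had 1 symbol, 932 had several and were not used as genes, and 9211 were not listed. Of the 1-symbol probe sets 34754 matched a RefSeq gene table of GRCm38.p6 and 0 symbols changed. Of 18194 genes 9012 had several probe sets. The 45037 probe sets other than 64 controls were also fitted singly. With limma 3.58.1 in R 4.3.3 (lmFit, contrasts.fit, eBayes) a model with a mean for each of the 4 groups was fitted to the 12 arrays, giving 8 residual and 3.96 prior degrees of freedom, a median residual SD of 0.11, and two-sided p-values adjusted over all genes or all probe sets. Precision is limited by the number of arrays. The fit was tested on simulated data with known changes of equal size on both days.

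The text names all 10 genes, at most 4 others per pathway list by smallest p in a genotype contrast, and the 6 genes most like Axin2 or the mean of the 10. The members and lists were chosen with earlier results of these data known, and the level of 5 as near background likewise. Alternatives covered normalization, filters on dim genes, variance settings, array weights, the choice of probe set, covariates, the replicate block (also within each day), fits within a day and leaving out each array; the meninges and Schwann cell covariates and the block within each day were added after seeing the data.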

Additional observations from a re-analysis of the deposited data

Results flagged for a closer look

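The genotype effect on 2 of the 10 genes differed between the days by a direct test, the day 15 effect minus the day 4 effect in the limma fit. Both differences were negative, where 0.159% of all genes were called negative. For Nkd1 the effects differed by -1.85 (adjusted p = 0.000935): the effect was 0.30 at day 15 and 2.15 at day 4. For Sp5 they differed by -1.18 (adjusted p = 0.0186): the effect was 0.17 at day 15 and 1.35 at day 4, and its means in 3 of the 4 groups lay near background, which limits these sizes. The Sp5 call was lost in 7 of the 12 fits without 1 array. It was also lost with the replicate block within each day (adjusted p = 0.0684) and with the Eif2s3y covariate (adjusted p = 0.0596).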

How the results depend on the processing

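Without the dimmest 30% of genes 7 of the 10 genes remained in the fit, of which 5 were called at day 4, 5 on average over the days and 1 on the difference between days. Of the 12736 genes in that fit 853 were called at day 4, 464 of them higher. On average 2017 were called, 1167 of them higher, and on the difference 91, 44 of them lower. Without the dimmest 50% 5 remained, of which 2 were called at day 15, 4 at day 4, 4 on average, 2 on the difference between days (Nkd1 and Axin2) and 5 for the day in Olig2cre/DA-Cat. Of the 9097 genes in that fit 828 were called at day 15, 247 of them higher, and 6503 for the day in Olig2cre/DA-Cat. The Eif2s3y covariate left 1 call on the difference between days. The meninges covariate left 2 for the day in wild type, where 5726 of all genes were called, and the Schwann cell covariate 2 at day 15. Leaving out each array gave 4 to 5 calls at day 15, 7 to 8 at day 4, 8 to 9 on average, 1 to 2 on the difference, 6 to 8 for the day in Olig2cre/DA-Cat and 4 to 6 for the day in wild type. Nkd2 at day 4 was called with array weights (adjusted p = 0.0174), and the Apcdd1 call at day 4 was lost with the meninges covariate (adjusted p = 0.0577). Over single-gene differences, pathway genes included, 1623 alternative values kept their direction and side of the threshold, 144 lost the call, 19 gained it and 22 turned in sign. Many of these values could not turn in sign. Trend and robust settings, a replicate block or leaving out an array of another group do not change the difference itself. The signs of the member differences that follow turned, and none of the turned values was called. Tnfrsf19 between days in wild type was at -0.0201 with quantile normalization, -0.0456 with array weights, -0.0294 with the probe set of largest variance, -0.0017 with the muscle covariate and -0.0642 to 0.0536 without 1 array. Znrf3 at day 4 was at 0.0028 with the mean of its probe sets and -0.1349 to 0.0555 without 1 array; its average was at -0.0031 with the muscle covariate, -0.0778 with the meninges covariate and -0.0125 to 0.0904 without 1 array, and it was at -0.0379 at day 15 with the meninges covariate. The Wif1 difference between days was at -0.0121 with the Eif2s3y covariate, -0.0138 with the meninges covariate and -0.1454 to 0.2193 without 1 array, and Sp5 at day 15 was at -0.0572 with the Schwann cell covariate. The cause was not tested for any of these. Over all 4 groups, 5 of 18 same-numbered pairs of samples had correlated deviations with r over 0.1 (r between -0.343 and 0.297). Differently numbered pairs over all 4 groups, 36 in number, had r between -0.307 and 0.365. The own number was the best match in 16 of 36 comparisons. Within a day, 4 of 6 same-numbered pairs of an Olig2cre/DA-Cat and a wild-type sample had r over 0.1 (0.0154 to 0.297). For differently numbered pairs within a day this was 0 of 12 (-0.307 to 0.0786). These counts are not independent, because the same samples enter both. The labels do not say what a number marks, and whether it marks a shared source was not tested, so the pairing is not established. With the replicate block within each day, chosen after seeing the data, 4 genes were called at day 15, 9 at day 4 and 9 on average, Nkd2 being added (adjusted p = 0.0333 at day 4, 0.0380 on average), and 1 on the difference, where Sp5 was lost (adjusted p = 0.0684). With the replicate block across all groups 4 genes were called at day 15, 8 at day 4, 8 on average, 2 on the difference, 7 for the day in Olig2cre/DA-Cat and 6 for the day in wild type, and Tnfrsf19 for the day in Olig2cre/DA-Cat was lost (adjusted p = 0.0566).

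Counts over all genes moved more. At day 15 the 533 calls became 828 without the dimmest 50%, 310 with the muscle, 931 with the Eif2s3y and 309 with the meninges covariate, 136 from the day 15 arrays alone and 292 to 935 without 1 array. At day 4 the 567 became 853 without the dimmest 30%, 1009 without the dimmest 50%, 2164 with array weights and at least 260 without 1 array. On average the 1512 became 3006 with array weights, 786 with the muscle, 2276 with the Eif2s3y and 839 with the meninges covariate and at least 868 without 1 array. The 64 on the difference became 117 without the dimmest 50%, 108 with trend and robust settings, 118 with array weights and 42 with the Schwann cell covariate.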
